A study of Mus musculus with 57 samples.

Results

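Brown adipose tissue (BAT) was compared with inguinal white adipose tissue (inguinal WAT) in wild-type (WT) mice fed a high-fat diet (HFD). Of the 41 columns of counts in the series, 14 belong to this comparison, 6 of them from BAT and 8 from inguinal WAT, joined on gene symbol. In the list of samples they make up 22 of 57 entries, since inguinal WAT on HFD was sequenced as 2 technical replicates per mouse and BAT as 1. The mice were male C57BL/6J, carried no edited allele, and were placed at 5 weeks of age on a diet with 45% of its energy as fat for 6 months. The series was built to ask what a homozygous Mfn2-R707W knock-in (KI) does to these tissues, and KI mice of the same strain, sex, age and diet, 6 for BAT and 8 for inguinal WAT, are used below only as another set of mice beside the WT values. The KI line came from 1 founder. Whole pieces of tissue were homogenised, so every value is a sum over all cell types present, and a smaller number of cells of a type cannot be told apart from less RNA per cell. Whether the BAT and the inguinal WAT were taken from the same animals is not stated.

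Brown adipocytes oxidise fatty acids in densely packed mitochondria and release the energy as heat through uncoupling protein 1, whereas white adipocytes store triglyceride and secrete leptin in proportion to their size. BAT is driven by sympathetic nerves through adrenergic receptors, and mouse inguinal WAT can form thermogenic (beige) adipocytes in the cold. Homeobox genes of the Hox clusters, and other position genes such as Zic1, keep in adult fat a record of where along the body the precursor cells arose.

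The depots came in separate count tables and differed in depth, and neither can be told apart from depot. Total counts ran from 8042591 to 10347424 in BAT (median 8445273.5) and from 19835504 to 25680411 in inguinal WAT (median 20930280.5). Across genes, log2 CPM of 2 mice correlated at 0.959 to 0.989 within BAT, at 0.96 to 0.987 within inguinal WAT and at 0.845 to 0.901 between depots, and the first principal component (74.8% of the variance) separated all 6 BAT from all 8 inguinal WAT samples. Some samples stood apart in markers of other tissues. The summed CPM of the 14 skeletal muscle markers tested was 3311 and 3831 in BAT mice 1 and 2 but 5.94 to 46.3 in the other 4, and in inguinal WAT it ran from 59.3 to 1477. The 18 markers of lymphocytes and lymph node tested summed to 409 to 1862 CPM in inguinal WAT, highest in mice 2 and 6, and to 22.4 to 155 CPM in BAT. Each count below was therefore also taken without BAT mice 1 and 2 and without inguinal mice 2 and 6.

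Of 16271 genes tested, 4498 (27.6%) were called higher in BAT and 4800 (29.5%) higher in inguinal WAT, at an adjusted p below 0.01 in edgeR's quasi-likelihood test with Benjamini-Hochberg adjustment. Because so many genes passed, a smaller set of large and consistent differences was defined by an adjusted p below 0.001, an absolute log2 fold change above 1.5 and no overlap of the normalised read counts (CPM, counts scaled to a common effective library size) between the depots. Values are CPM after scaling, log2 fold changes are BAT over inguinal WAT from the same fit, ± after a fold change is the SE, and means are given ± SD over 6 BAT and 8 inguinal WAT samples. By the large and consistent rule 1224 genes (7.52%) were higher in BAT and 1475 (9.07%) higher in inguinal WAT, of which 1026 and 1219 were protein-coding. Just inside the fold limit lay Dhodh, at 33.4 ± 2.65 CPM in BAT against 11.8 ± 2.22 in inguinal WAT, and just outside it lay Orai3, at 33.7 ± 3.59 CPM in BAT against 11.9 ± 1.57 in inguinal WAT. Among the large and consistent genes, those higher in BAT were more often abundant: 956 of 1224 had a mean of at least 10 CPM there, against 710 of 1475 higher in inguinal WAT. In the other depot, 11 of the genes higher in BAT and 265 of those higher in inguinal WAT had no mouse above 3 counts, and the lower depth of BAT moves with this difference. Without BAT mice 1 and 2 the large and consistent sets held 1242 and 1252 genes, and without inguinal mice 2 and 6 they held 1123 and 1437. The split between the directions depended on the scaling of the samples. Composition factors from the trimmed mean of M values (TMM) were 0.749 to 0.911 in BAT and 1.10 to 1.26 in inguinal WAT, and with total counts alone the median log2 fold change of all genes moved from -0.067 to -0.588 and the share of calls that were higher in BAT from 48.4% to 20.8%.

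**Figure D1:**
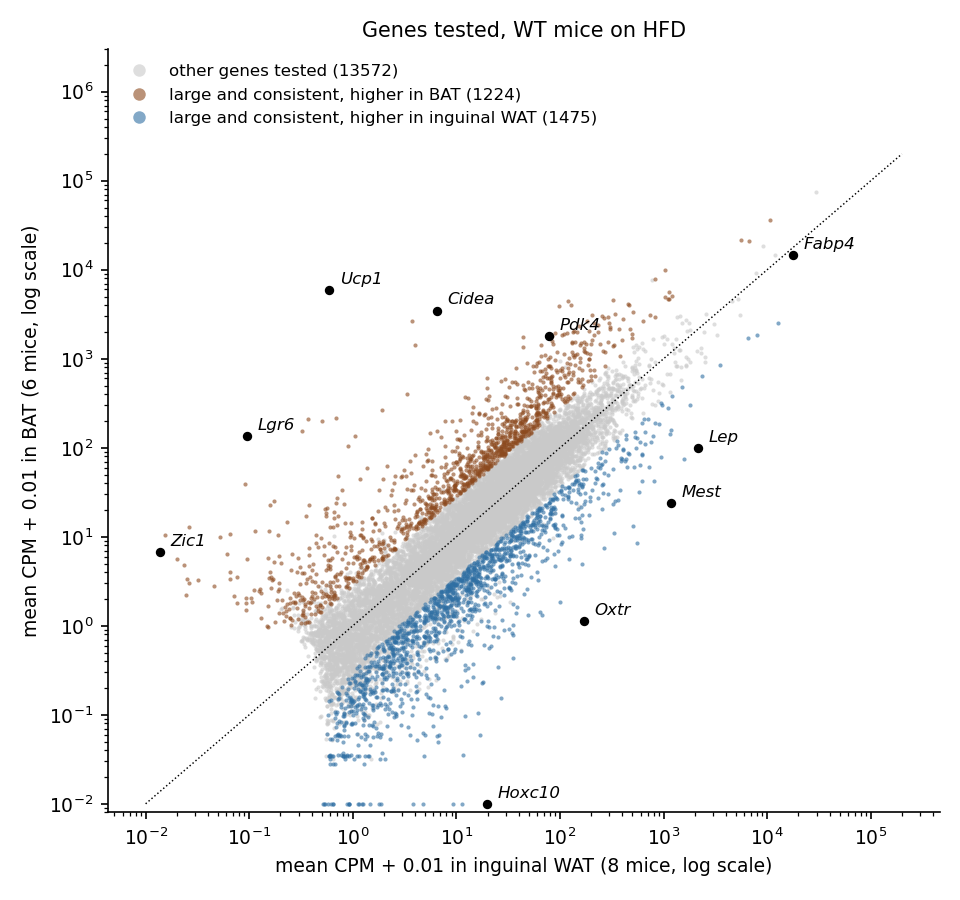
Each point is 1 of the genes tested, with its mean CPM plus 0.01 in inguinal WAT of 8 mice on the horizontal axis and in BAT of 6 mice on the vertical axis, both on log scales, and with the dotted line at equal values. Brown points are the 1224 large and consistent genes higher in BAT, blue points the 1475 higher in inguinal WAT, and Ucp1, Cidea and Lgr6 lie far above the line while Lep, Mest, Oxtr and Hoxc10 lie far below it.

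Overlap of gene models limits the reading of single genes. Of the large and consistent genes, 109 of 1224 higher in BAT and 93 of 1475 higher in inguinal WAT share exonic bases with a more abundant large and consistent gene of the same direction. In 64 and 45 of these the log2 fold changes differ by less than 0.5. Dvl2, on the strand opposite to the acyl-CoA dehydrogenase gene Acadvl, shares 1151 exonic bases with it and had nearly the same values (3906 ± 462 CPM in BAT against 98.5 ± 12.3 in inguinal WAT for Dvl2, and 4459 ± 549.7 CPM in BAT against 119 ± 15.0 in inguinal WAT for Acadvl). The pairs Bckdha and B3gnt8, Acot11 and Fam151a, and Gpd1 and Gm16537 likewise lie on opposite strands and share 1171, 1263 and 384 exonic bases. Whether counting used the strand is not given in the sources used here, so reads of such neighbours cannot be told apart.

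The 4 marker genes for the depots all separated them, in the direction of the labels. Ucp1, which dissipates the proton gradient of brown fat mitochondria, ranged over 4009 to 6917 CPM (median 6163) in BAT and 0.181 to 1.68 CPM (median 0.408) in inguinal WAT. Every BAT sample lay far above every inguinal WAT sample (log2 fold change 13.30, SE 0.40, adjusted p = 5.4e-14). In inguinal WAT no mouse had more than 38 Ucp1 counts. Cidea, a lipid droplet protein of brown adipocytes, ranged over 2976 to 3995 CPM (median 3526) in BAT and 2.92 to 9.71 CPM (median 6.36) in inguinal WAT, again without overlap (log2 fold change 9.06, SE 0.26, adjusted p = 1.1e-14). Zic1, a zinc finger gene expressed in the dorsal mesoderm from which interscapular brown fat arises, had 4.03 to 8.85 CPM (median 6.73) in BAT and no more than 1 count in any inguinal WAT sample. It was at least 56.4-fold higher in BAT when each inguinal sample is set to 3 counts (adjusted p = 8.9e-13). Lep, the leptin gene of white adipocytes, ranged over 15.6 to 203 CPM (median 99.0) in BAT and 1569 to 3464 CPM (median 2069) in inguinal WAT. The highest BAT sample stood well below the lowest inguinal WAT sample (log2 fold change -4.44, SE 0.53, adjusted p = 4.8e-06). Lep varied by more than 10-fold within BAT, lowest in mice 1 and 2, whose muscle markers stood apart. Per kilobase of gene model Ucp1 stood at 3577 mean CPM in BAT, close to the fatty acid binding protein gene Fabp4 at 3269, and at 0.355 in inguinal WAT.

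The Ucp1 gene lies at chr8:83290352-83298452 on the plus strand (GRCm38). The 250 bases before its RefSeq start (chr8:83290098-83290347, GRCm38.p6) are shown because Ucp1 had the largest difference of the thermogenic effectors. They hold none of the 5 motifs searched here on either strand, which were TNAAGGTCA for estrogen-related receptors, GCATGCGC for NRF1, TGACGTCA for CREB and ATF factors, CCCNNGGGA for EBF factors and TTGCGCAA for C/EBP factors. The deiodinase gene Dio2, whose enzyme makes active thyroid hormone within brown fat, is shown with it. Its single TGACGTCA, in capitals, is a palindrome that starts 95 bases before the start site (chr12:90739039-90739288, minus strand).
Ucp1: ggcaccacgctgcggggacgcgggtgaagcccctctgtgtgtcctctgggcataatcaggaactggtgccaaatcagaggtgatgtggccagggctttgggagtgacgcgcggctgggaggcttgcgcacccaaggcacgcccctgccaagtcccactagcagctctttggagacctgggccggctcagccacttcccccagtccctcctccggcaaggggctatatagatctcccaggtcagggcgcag
Dio2: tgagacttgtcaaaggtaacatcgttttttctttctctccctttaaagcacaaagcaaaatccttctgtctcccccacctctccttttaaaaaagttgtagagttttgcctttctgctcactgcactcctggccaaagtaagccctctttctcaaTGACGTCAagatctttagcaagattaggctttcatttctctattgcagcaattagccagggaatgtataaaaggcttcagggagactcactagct
TGACGTCA was found in the 300-base promoter windows of 2.03% of all 27025 genes with a RefSeq promoter, of 3.31% of the 11586 of them that were tested, of 3.70% of the 864 large and consistent genes higher in BAT that have one and of 1.44% of the 1045 higher in inguinal WAT.

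All 24 thermogenic effector genes tested were called higher in BAT, and all 24 met the large and consistent rule, beside 27.6% and 7.52% of all genes tested. The list was chosen with earlier results of these data known, so these counts describe its members and are not a test. Their median log2 fold change was 5.77 (all genes tested -0.067). The respiratory chain subunit isoforms of heart and brown fat, Cox8b and Cox7a1, had no overlap between depots. Cox8b ranged over 2740.3 to 4825 CPM (median 3232) in BAT and 3.48 to 10.1 CPM (median 6.25) in inguinal WAT. Cox7a1 ranged over 961 to 1892 CPM (median 1425) in BAT and 1.85 to 6.85 CPM (median 3.88) in inguinal WAT. Their log2 fold changes were 9.06 ± 0.29 and 8.50 ± 0.28. Fabp3, a fatty acid binding protein of oxidative tissues, was at 1621 to 3426 CPM (median 2697) in BAT and 0.0911 to 16.0 CPM (median 1.68) in inguinal WAT (log2 fold change 9.49, SE 0.90, adjusted p = 7.1e-07). Its inguinal values spread widely around a low median, with mouse 1 highest. Fabp3 has a near-identical processed copy, Fabp3-ps1, with which its reads may be shared. Slc27a2, a very long chain acyl-CoA synthetase, was at 109 to 369.7 CPM (median 192) in BAT and 0.0621 to 1.02 CPM (median 0.25) in inguinal WAT (log2 fold change 9.20). Dio2 stood at 83.2 to 286 CPM (median 122) in BAT and 0.109 to 0.575 CPM (median 0.292) in inguinal WAT (log2 fold change 8.95). BAT mice 1 and 2, whose muscle markers stood apart, were the highest BAT samples for both Slc27a2 and Dio2. For 19 of the 24 genes the difference exceeded 16-fold, and it was smallest for Eva1a (log2 fold change 2.02) and Acot2 (log2 fold change 3.11). The pyruvate dehydrogenase kinase gene Pdk4 was the member with the highest level in inguinal WAT, at 39.4 to 107 CPM (median 80.4) in inguinal WAT. It was 4.52 higher in BAT on the log2 scale. Pank1 (coenzyme A synthesis), Letmd1, Kcnk3 (a potassium channel of brown adipocytes) and Otop1 (a proton channel) had log2 fold changes of 6.92, 4.36, 3.27 and 4.67.

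**Figure D2:**
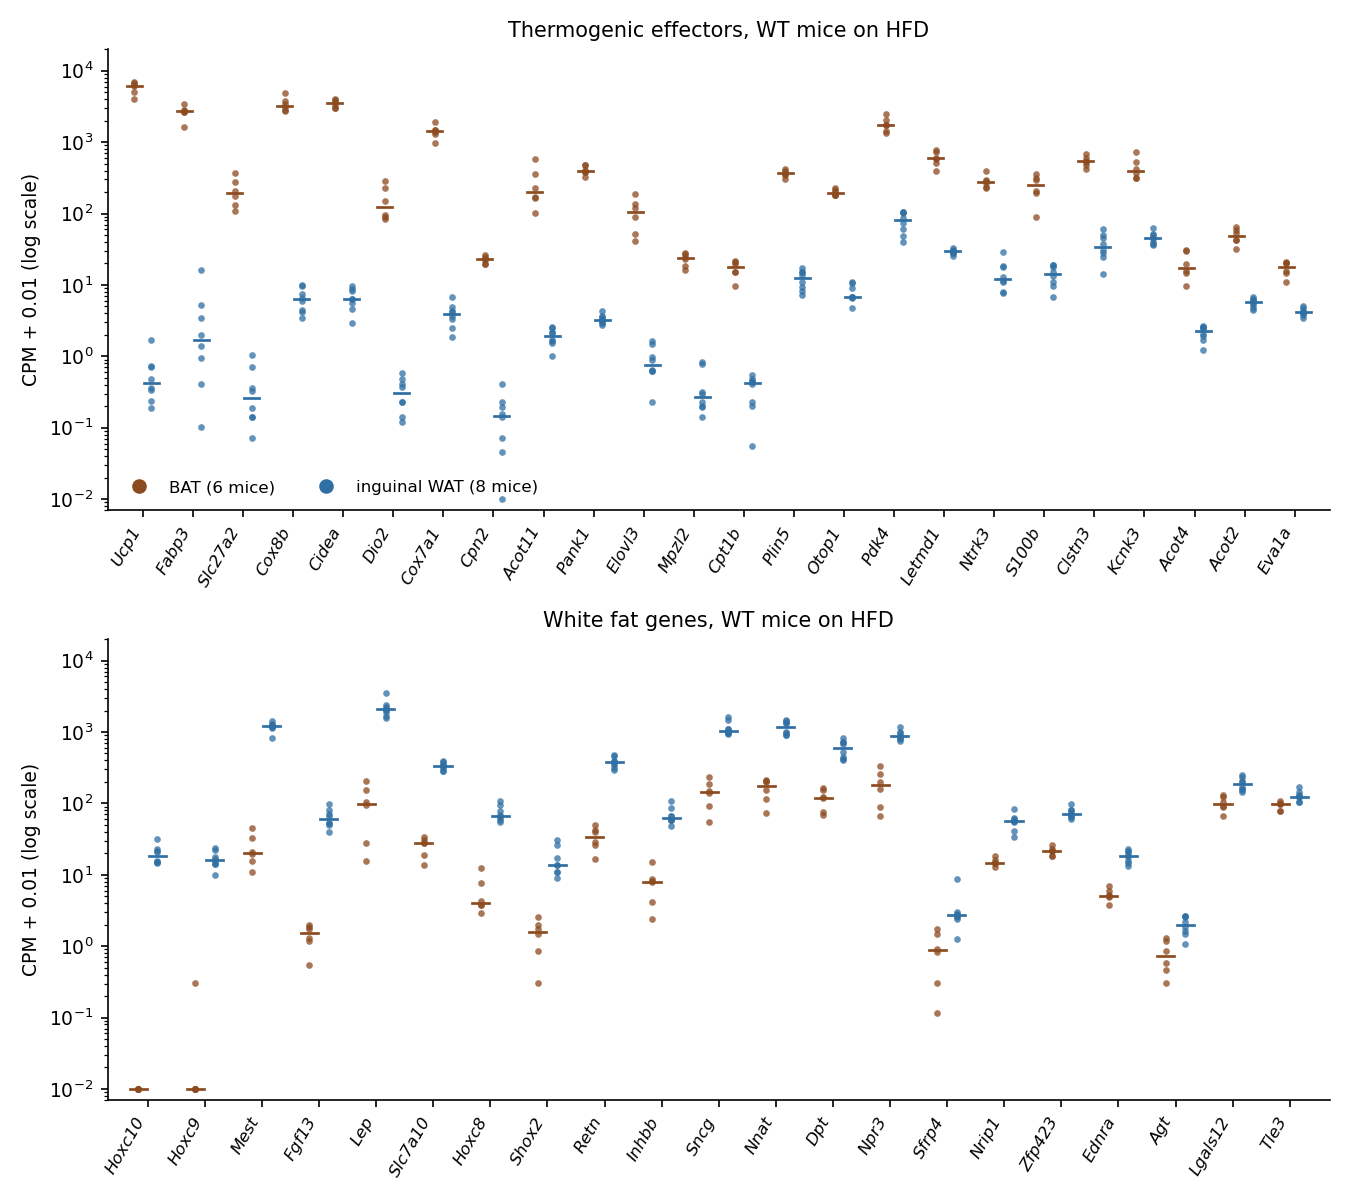
CPM plus 0.01 on a log scale for each mouse, brown for BAT (6 mice) and blue for inguinal WAT (8 mice), with a short line at the median, for the 24 thermogenic effectors (upper panel) and the 21 white fat genes (lower panel), each ordered by log2 fold change. The depots separate for every thermogenic effector, from Ucp1 at the left to Eva1a at the right, and Hoxc10 and Hoxc9 lie at or near 0 in BAT.

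Several protein families contain a member typical of oxidative tissue and another found more widely, and the ratio of their counts within a mouse does not depend on how samples are scaled. In 17 such pairs, 14 ratios differed between the depots at an adjusted p below 0.01 (2-sided exact permutation test over 3003 divisions of the mice, Benjamini-Hochberg over the 17 pairs). The smallest p that this test allows, 0.000666 (0.000871 after adjustment), was reached in 13 of them. The pairs include the depot markers Ucp1 and Cidea and other genes already seen not to overlap in these mice. The number of pairs that passed therefore describes the chosen pairs and adds no separate support. Log2 of Ucp1 over Ucp2 was 5.52 ± 0.47 in BAT and -9.31 ± 0.88 in inguinal WAT (mean ± SD, n = 6 and 8), a difference of 14.83. Ucp2 itself was higher in inguinal WAT (log2 fold change -1.35 ± 0.13) and shares exonic bases with Dnajb13. Cidea over the white fat isoform Cidec was 1.91 ± 0.14 in BAT and -8.65 ± 0.42 in inguinal WAT. Cidec, which seals and fuses large droplets, was higher in inguinal WAT (-1.44 ± 0.11). The carnitine palmitoyltransferases, which admit fatty acids to mitochondria, divided in the same way. Cpt1b, the muscle isoform, ranged over 9.78 to 21.3 CPM (median 17.6) in BAT and 0.0455 to 0.544 CPM (median 0.415) in inguinal WAT. Cpt1a, the liver isoform, ranged over 30.3 to 40.0 CPM (median 37.7) in BAT and 103 to 144 CPM (median 123) in inguinal WAT. Their log2 ratio differed by 7.36. In BAT Cpt1a remained the more counted of the pair, at a log2 ratio of -1.13 ± 0.51 in BAT and -8.49 ± 0.93 in inguinal WAT. Cox7a1 over Cox7a2 and Cox8b over Cox8a differed by 5.21 and 7.02, although Cox7a2 and Cox8a were themselves higher in BAT by 3.35 and 2.11 on the log2 scale. Not every tissue isoform followed. Cox4i2, the isoform of lung, was at 11.4 to 17.2 CPM (median 13.3) in BAT and 8.52 to 18.4 CPM (median 12.8) in inguinal WAT and did not pass the test (log2 fold change 0.11, SE 0.15, adjusted p = 0.52). Cox4i1 was 3.11 higher in BAT, and the ratio fell by 2.97. The adenine nucleotide translocases Slc25a4 and Slc25a5 were both higher in BAT (1.70 and 1.59), and their ratio differed by 0.13 (adjusted p = 0.26, exact permutation test). The ratios of the beta-adrenergic receptors Adrb3 to Adrb1 (-0.37, adjusted p = 0.26) and of the coactivators Ppargc1a to Ppargc1b (-0.34, adjusted p = 0.057) did not pass the exact permutation test either. The muscle isoform Cox6a2 was at 0 to 19.3 CPM in BAT, highest in mice 1 and 2, whose muscle markers stood apart, and at 1.32 to 11.9 CPM in inguinal WAT. Its ratio to Cox6a1 passed with the lower mean in BAT (-5.44, adjusted p = 0.0032, exact permutation test), although the depots overlapped. In inguinal WAT, mice 1 and 2 had the highest Cox6a2 (11.9 and 8.71 CPM) and the highest muscle marker sums (1426 and 1477 CPM). Inguinal mice 3 and 8 had the lowest of both (1.32 and 2.25 CPM, and 59.3 and 69.1 CPM). The part of muscle in this ratio was not tested. BAT mice 3 and 5 had no Cox6a2 count, so their ratios rest on the count of 1 added and on depth.

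**Figure D3:**
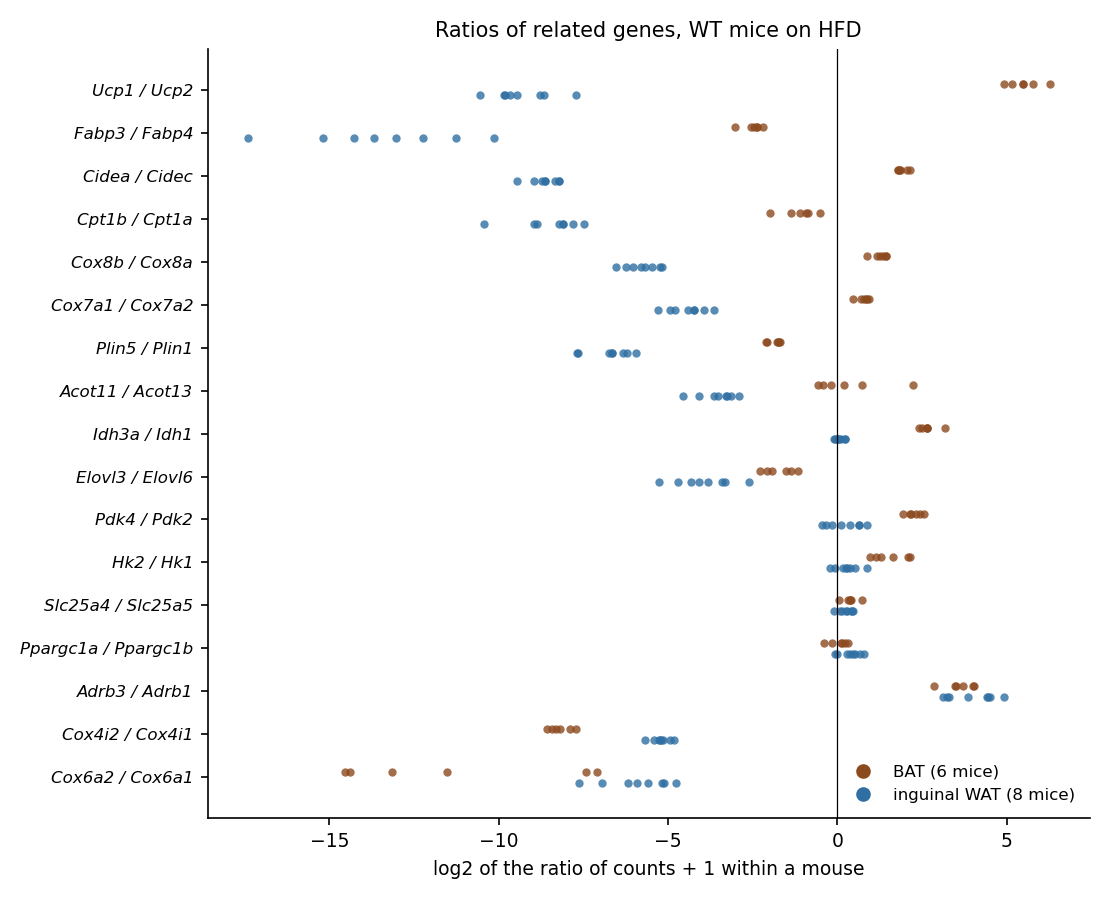
Log2 of the ratio of counts plus 1 for 17 pairs of related genes, each point 1 mouse, brown for BAT (6 mice) and blue for inguinal WAT (8 mice), ordered by the difference between depots. The groups lie far apart for Ucp1 over Ucp2, Fabp3 over Fabp4 and Cidea over Cidec, and overlap for Slc25a4 over Slc25a5, Adrb3 over Adrb1, Ppargc1a over Ppargc1b and Cox6a2 over Cox6a1.

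Nuclear genes for the respiratory chain were higher in BAT almost without exception: 82 of 86 tested were called higher in BAT, 1 higher in inguinal WAT and 3 not called, with a median log2 fold change of 3.11. Their summed level was 70278 to 106260 CPM in BAT and 8405 to 10405 CPM in inguinal WAT. The complex I subunit gene Ndufv1 ranged over 1388 to 2032 CPM (median 1794) in BAT and 70.4 to 95.8 CPM (median 83.0) in inguinal WAT (log2 fold change 4.43, SE 0.11, adjusted p = 3.7e-15). The ATP synthase gene Atp5b ranged over 7489 to 11190.0 CPM (median 10177) in BAT and 884 to 1151 CPM (median 1059.6) in inguinal WAT (log2 fold change 3.27). The exception was Atp5g1, which encodes a copy of the ring subunit c of ATP synthase and stood at 16.1 to 27.4 CPM (median 18.6) in BAT and 28.9 to 45.8 CPM (median 37.8) in inguinal WAT (log2 fold change -0.88, SE 0.13, adjusted p = 8.8e-06). The mitochondrial ribosome followed, with 75 of 76 genes called higher in BAT and none higher in inguinal WAT, but at a smaller median of 1.52. Of the 13 mRNAs encoded by mitochondrial DNA, 10 were called higher in BAT at a median of 1.33. The share of all genes tested that was called higher in BAT was 27.6%. The cytochrome oxidase mRNA mt-Co1 ranged over 56476 to 92502 CPM (median 76001) in BAT and 15325 to 48877 CPM (median 31571) in inguinal WAT (log2 fold change 1.33, SE 0.22, adjusted p = 3.8e-05). By contrast mt-Nd2 overlapped between depots (median 8876, range 5664 to 13755 CPM in BAT, and median 8451, range 3825 to 11919 CPM in inguinal WAT, log2 fold change 0.23, SE 0.25, adjusted p = 0.42). With total counts alone as the scale, 8 of the 13 were called higher in BAT and 2 higher in inguinal WAT. The mRNAs mt-Co2, mt-Co3, mt-Atp6 and mt-Nd3 have near-identical nuclear copies and carried few counts, and their values are uncertain.

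Set against the nuclear genes within the same mouse, the mitochondrial mRNAs were relatively more abundant in inguinal WAT. Mitochondrial mRNA counts were 1.65 to 2.30 times the nuclear respiratory chain counts in BAT and 4.70 to 12.2 times in inguinal WAT, a difference of -1.97 in log2 ratio without overlap. The 2-sided exact permutation test gave the smallest p it allows (p = 0.000666). The comparison was chosen after the values of both lists were seen, so this p adds no separate support. The inguinal WAT of these mice stood high among the groups of the series, at a median of 8.24, beside 1.65 in inguinal WAT of KI mice on HFD and 2.02 in that of chow-fed WT mice. In the chow-fed WT mice the ratio ran from 1.23 to 2.31, which overlaps the BAT of WT mice on HFD. In KI mice the ratio was 0.978 to 1.23 in BAT and 1.46 to 2.63 in inguinal WAT.

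The letters GCATGCGC of the NRF1 motif, a factor that drives respiratory chain genes, occurred in the promoter windows of 11 of 70 nuclear respiratory chain genes (15.7%), 4 of 21 fatty acid oxidation genes (19.0%) and 2 of 14 TCA cycle genes (14.3%), beside 5.42% of the 11586 genes tested that have a RefSeq promoter and none of 18 thermogenic effectors. The share was 6.02% of the large and consistent genes higher in BAT and 2.30% of those higher in inguinal WAT. The bases before the start of the succinate dehydrogenase gene Sdhb (chr4:140961021-140961270, plus strand) and of the cytochrome c gene Cycs (chr6:50566570-50566819, minus strand, GRCm38.p6) are shown as examples, with this motif alone in capitals, 54 and 60 bases before the start.
Sdhb: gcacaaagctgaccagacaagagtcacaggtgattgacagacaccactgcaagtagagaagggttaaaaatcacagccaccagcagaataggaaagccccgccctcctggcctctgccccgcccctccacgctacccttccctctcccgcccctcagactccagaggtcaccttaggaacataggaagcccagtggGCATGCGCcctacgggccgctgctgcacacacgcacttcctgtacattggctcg
Cycs: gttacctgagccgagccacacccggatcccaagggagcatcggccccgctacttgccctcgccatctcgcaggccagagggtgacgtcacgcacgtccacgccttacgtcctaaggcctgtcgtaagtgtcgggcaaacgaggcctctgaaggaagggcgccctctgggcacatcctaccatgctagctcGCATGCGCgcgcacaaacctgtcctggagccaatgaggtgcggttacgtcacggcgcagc
Sdhb ranged over 1144 to 1962 CPM (median 1613) in BAT and 80.5 to 96.8 CPM (median 83.1) in inguinal WAT (log2 fold change 4.24, SE 0.11, adjusted p = 4.5e-15). Cycs averaged 889 ± 162 CPM in BAT against 117 ± 24.5 in inguinal WAT. A match of letters is a description of the sequence and not of binding.

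Fuel oxidation genes moved with the respiratory chain. In fatty acid oxidation 23 of 25 genes were called higher in BAT and 1 higher in inguinal WAT, with a median log2 fold change of 2.90, and Cpt1a was the 1 in the opposite direction. Acaa2, the thiolase of mitochondrial beta-oxidation, ranged over 2975 to 4885 CPM (median 4147) in BAT and 113 to 145 CPM (median 120.0) in inguinal WAT (log2 fold change 4.99, SE 0.13, adjusted p = 3.7e-15). Acadvl, the very long chain acyl-CoA dehydrogenase, was 5.22 higher, with the overlap given above. All 17 TCA cycle genes were called and met the large and consistent rule, from Suclg2 (log2 fold change 1.92) to Suclg1 (log2 fold change 4.43), at a median of 3.11. All 18 genes of branched-chain amino acid catabolism were called higher in BAT as well, at a median of 1.14, and 6 of them met the large and consistent rule. Of the 18, 12 were called higher in BAT with total counts alone (median 0.62), and against inguinal WAT of chow-fed mice 12 were called higher in BAT and 1 higher in inguinal WAT. Of 13 peroxisomal oxidation genes 8 were called higher in BAT and 1, the very long chain fatty acid transporter gene Abcd2 (log2 fold change -1.49), higher in inguinal WAT. Of all genes tested, 27.6% and 29.5% were called in these directions. With total counts alone as the scale the peroxisomal split became 5 and 5.

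Most genes of glucose uptake and glycolysis, and part of those for fat synthesis, were also higher in BAT. Of 23 genes of glucose uptake and glycolysis 19 were called higher in BAT and none higher in inguinal WAT, at a median log2 fold change of 2.06. The mitochondrial glycerol phosphate dehydrogenase gene Gpd2 ranged over 299 to 984 CPM (median 538) in BAT and 17.5 to 27.4 CPM (median 18.6) in inguinal WAT (log2 fold change 4.94, SE 0.22, adjusted p = 4.5e-12). Slc2a4, the insulin-responsive glucose transporter, averaged 324 ± 101 CPM in BAT against 112 ± 8.96 in inguinal WAT (SD, n = 6 and 8, log2 fold change 1.53), whereas Slc2a1 averaged 14.2 ± 2.28 CPM in BAT against 14.8 ± 2.22 in inguinal WAT and was not called (adjusted p = 0.71). In de novo lipogenesis 9 of 15 genes were called higher in BAT, none was called higher in inguinal WAT, and the median was 1.58. The share of all genes tested that was called higher in BAT was 27.6%. The lipogenic split became 7 and 3 with total counts alone, and 5 and 1 with mice 1 to 6 blocked by replicate number. The elongase gene Elovl6 ranged over 120.1 to 796 CPM (median 282) in BAT and 6.52 to 17.6 CPM (median 12.9) in inguinal WAT (log2 fold change 4.83). Thrsp, a lipogenic regulator, ranged over 951 to 4802 CPM (median 1890.3) in BAT and 65.1 to 207 CPM (median 158) in inguinal WAT (log2 fold change 3.96). These genes also varied widely among BAT samples, and the fatty acid synthase gene Fasn ran from 547 CPM in BAT mouse 2 to 17745 CPM. The desaturase gene Scd1 ranged over 3669 to 24090.0 CPM (median 14136) in BAT and 7306 to 18752 CPM (median 11796) in inguinal WAT (adjusted p = 0.45). The regulator gene Srebf1 averaged 181 ± 53.4 CPM in BAT against 188 ± 40.0 in inguinal WAT (adjusted p = 0.77). Neither was called.

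**Figure D4:**
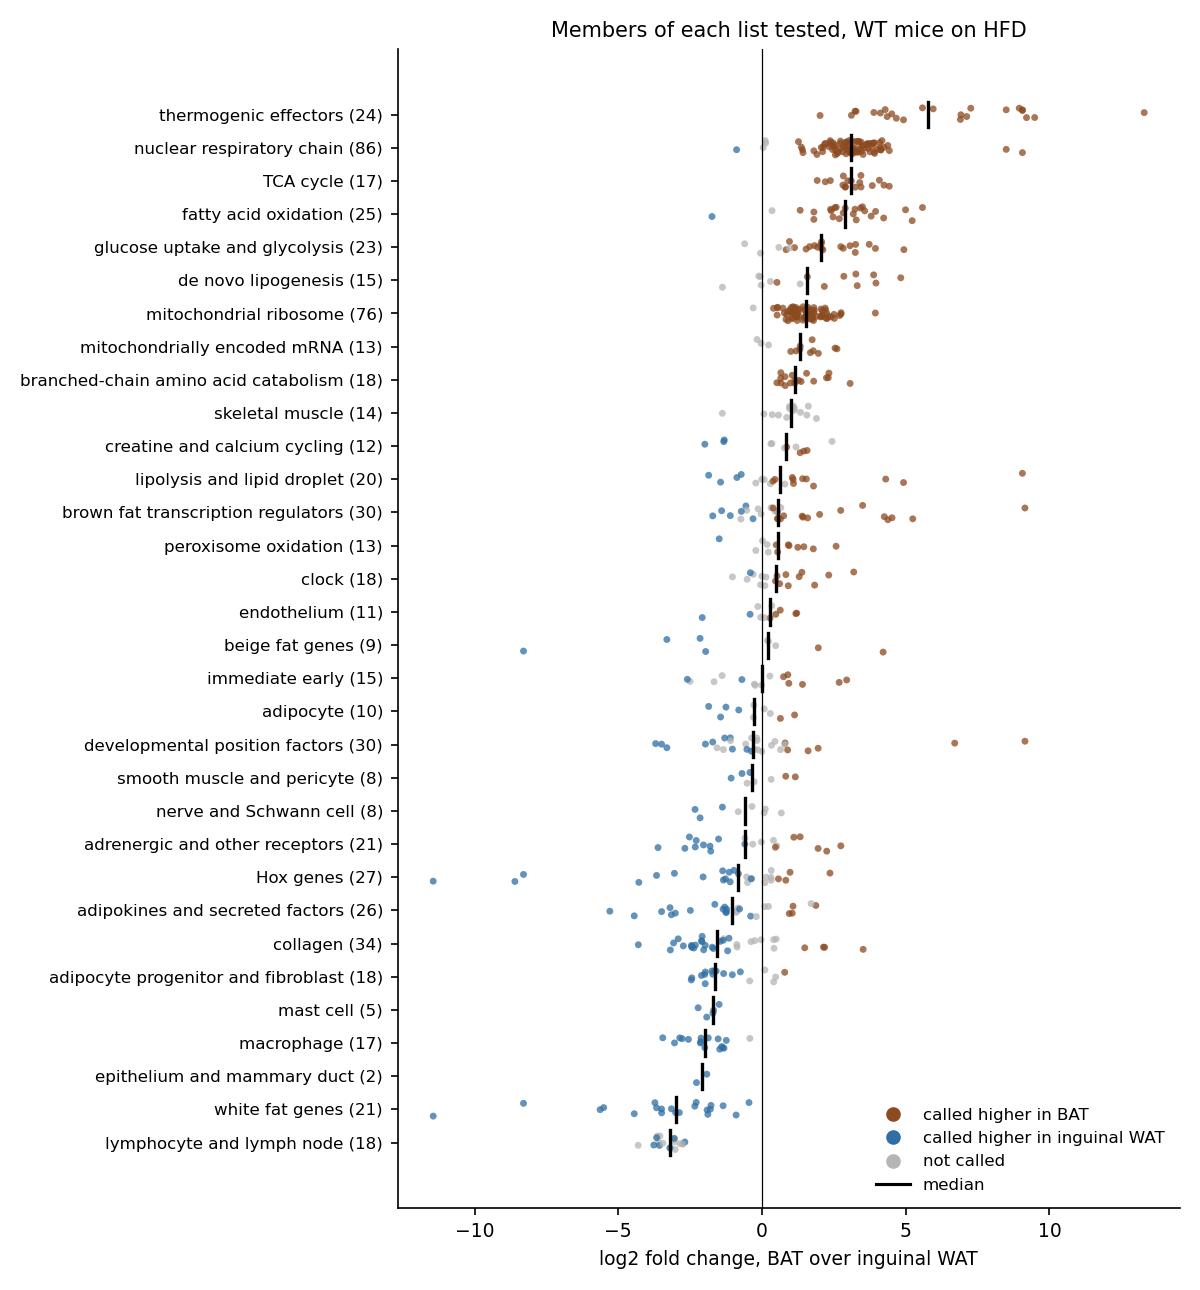
Log2 fold change of each list member tested, 1 point per gene, brown if called higher in BAT, blue if called higher in inguinal WAT and grey if not called, with a black line at the list's median and the number tested in brackets. Thermogenic effectors, the nuclear respiratory chain, the TCA cycle and fatty acid oxidation lie to the right (medians 5.77, 3.11, 3.11 and 2.90), and white fat genes, macrophage markers and collagens to the left (medians -3.00, -1.99 and -1.57).

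Lipid droplet genes split by family member. Plin5, the perilipin that ties droplets to mitochondria, ranged over 308 to 420.4 CPM (median 366) in BAT and 7.1 to 17.3 CPM (median 12.4) in inguinal WAT (log2 fold change 4.92, SE 0.19, adjusted p = 4.6e-13). Plin1 overlapped between the depots (median 1301, range 1176 to 1534 CPM in BAT, and median 1173, range 982 to 1655 CPM in inguinal WAT, adjusted p = 0.59). Plin4 was higher in inguinal WAT (median 652, range 575 to 724 CPM in BAT, and median 2351, range 1833 to 2828 CPM in inguinal WAT, log2 fold change -1.86). In the lipolysis and lipid droplet list as a whole 11 of 20 genes were called higher in BAT and 4 higher in inguinal WAT. Of all genes tested, 27.6% and 29.5% were called in these directions. The triglyceride lipase gene Pnpla2 (log2 fold change 1.05) and its inhibitor gene G0s2 (log2 fold change 1.54) were both higher in BAT, and the hormone-sensitive lipase gene Lipe was not called (0.29, adjusted p = 0.028).

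Among 30 transcription regulators linked to brown adipocytes, 17 were called higher in BAT, 6 higher in inguinal WAT and 7 not called, with a median log2 fold change of 0.55. The shares of all genes tested were 27.6% higher in BAT and 29.5% higher in inguinal WAT. Zic1, given above, had the largest difference of the list, and Ppara, Ppargc1b, Esrrb and Ppargc1a, which regulate oxidative metabolism, followed it. Ppara, a fatty acid receptor, ranged over 17.3 to 77.4 CPM (median 33.2) in BAT and 0.616 to 2 CPM (median 1.1) in inguinal WAT (log2 fold change 5.25, SE 0.37, adjusted p = 7.8e-09). Ppargc1b ranged over 33.4 to 73.7 CPM (median 38.4) in BAT and 1.27 to 2.79 CPM (median 1.92) in inguinal WAT (log2 fold change 4.52). Ppargc1a ranged over 27.3 to 92.2 CPM (median 37.3) in BAT and 2.06 to 3.83 CPM (median 2.39) in inguinal WAT (log2 fold change 4.26). BAT mice 1 and 2, whose muscle markers stood apart, were the highest BAT samples for Ppara, Ppargc1b and Ppargc1a. For Ppargc1a they had 92.2 and 60.2 CPM, the others 27.3 to 38.4. Esrra, the partner receptor of Ppargc1a and Ppargc1b, averaged 314 ± 32.3 CPM in BAT against 27.7 ± 5.48 in inguinal WAT. Prdm16 averaged 29.6 ± 4.62 CPM in BAT against 20.3 ± 4.48 in inguinal WAT (log2 fold change 0.54, SE 0.14, adjusted p = 0.0021). Ebf2 averaged 34.0 ± 6.25 CPM in BAT against 12.9 ± 2.84 in inguinal WAT (log2 fold change 1.40). Prdm16 was not called with total counts alone (0.02). Pparg, the master regulator of all adipocytes, was 0.64 higher in BAT with TMM scaling and not called with total counts alone (0.12). Lhx8, Ebf1 and Tbx15, each known from brown fat, were higher in inguinal WAT. Lhx8 ranged over 1.13 to 4.25 CPM (median 2.37) in BAT and 5.41 to 11.8 CPM (median 8.15) in inguinal WAT (log2 fold change -1.71). Ebf1 ranged over 40.6 to 62.0 CPM (median 47.8) in BAT and 102 to 186 CPM (median 129.8) in inguinal WAT (log2 fold change -1.40). The log2 fold change of Tbx15 was -1.10. With total counts alone 11 of the 30 were called higher in BAT and 10 higher in inguinal WAT.

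Receptors through which nerves and hormones act on fat differed in both directions, with 6 of 21 called higher in BAT and 10 higher in inguinal WAT. The share higher in BAT is near the 27.6% of all genes tested, and 5 and 12 were called with total counts alone. Adrb3, the main beta-adrenergic receptor of mouse adipocytes, ranged over 282 to 508 CPM (median 396) in BAT and 34.6 to 135 CPM (median 81.9) in inguinal WAT (log2 fold change 2.25, SE 0.28, adjusted p = 4.7e-06). Adrb1 ranged over 22.2 to 44.5 CPM (median 32.9) in BAT and 3.57 to 7.76 CPM (median 4.65) in inguinal WAT (log2 fold change 2.74). The alpha-adrenergic receptor gene Adra1a ranged over 34.7 to 63.5 CPM (median 42.0) in BAT and 10.5 to 14.4 CPM (median 11.5) in inguinal WAT (log2 fold change 1.95). In the other direction the corticotropin receptor gene Mc2r ranged over 1.91 to 3.83 CPM (median 2.44) in BAT and 20.9 to 49.0 CPM (median 31.1) in inguinal WAT (log2 fold change -3.62). Hcar2, the antilipolytic niacin receptor, had a log2 fold change of -2.68. Npr3, the natriuretic peptide clearance receptor, averaged 186 ± 104 CPM in BAT against 909 ± 138 in inguinal WAT (log2 fold change -2.29). Oxtr, the oxytocin receptor, was among the largest of all differences in this direction, at 0.106 to 2.05 CPM (median 1.17) in BAT and 118 to 191 CPM (median 181) in inguinal WAT (log2 fold change -7.30, SE 0.28, adjusted p = 7.4e-13).

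Of the white fat genes, 21 of 21 tested were called higher in inguinal WAT, 17 of them large and consistent. The shares of all genes tested were 29.5% and 9.07%, and the median log2 fold change of the list was -3.00. Without BAT mice 1 and 2, 20 of 21 were called. The same number was called with mice 1 to 6 blocked by replicate number, and against inguinal WAT of chow-fed mice. This list too was chosen with earlier results known, so its counts describe the members and are not a test. Mest, an imprinted gene tied to fat cell expansion, ranged over 10.9 to 44.9 CPM (median 20.2) in BAT and 819.9 to 1425 CPM (median 1224) in inguinal WAT (log2 fold change -5.63, SE 0.30, adjusted p = 6.3e-11). It shares 912 exonic bases with Copg2 on the opposite strand. Secreted proteins of white adipocytes followed, with 15 of 26 adipokines and secreted factors called higher in inguinal WAT and 4 higher in BAT. Sfrp5, a secreted Wnt inhibitor, ranged over 4.67 to 20.2 CPM (median 13.5) in BAT and 362 to 625 CPM (median 518) in inguinal WAT (log2 fold change -5.29). The resistin gene Retn ranged over 16.5 to 50.1 CPM (median 34.1) in BAT and 290.4 to 475 CPM (median 377) in inguinal WAT (log2 fold change -3.49). The adiponectin gene Adipoq ranged over 952 to 1179.7 CPM (median 1054) in BAT and 2073 to 3021 CPM (median 2384) in inguinal WAT (log2 fold change -1.25). Higher in BAT were Nampt (log2 fold change 1.87), the angiogenic factor Vegfa (log2 fold change 1.08), Bmp8b (log2 fold change 1.05) and Nrg4 (log2 fold change 0.95). Of 9 genes associated with beige adipocytes, 2 were called higher in BAT (P2rx5 4.21, Slc36a2 1.96) and 4 higher in inguinal WAT, among them Klhl13 (log2 fold change -2.15) and Hoxc9.

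Several genes that record body position were at or near 0 in a single depot. Hoxc10, at chr15:102966796-102971893 within the HoxC cluster, had no count in any of the 6 BAT samples and 14.8 to 31.6 CPM (median 18.2) in inguinal WAT. It was at least 46.7-fold lower in BAT when BAT is set to 3 counts. Hoxc9 had at most 2 counts in a BAT sample and 9.95 to 23.5 CPM (median 15.9) in inguinal WAT, at least 39.7-fold lower in BAT. Hoxa10 had at most 1 count in a BAT sample and 5.45 to 17.9 CPM (median 12.8) in inguinal WAT, at least 27.7-fold lower in BAT. Hoxc10 and Hoxc5 share 166 exonic bases. The direction changed along the clusters. Of the 7 Hox genes of paralogue groups 4 and 5, 4 were called higher in BAT and 2 higher in inguinal WAT, at a median log2 fold change of 0.57. Of all genes tested, 27.6% were called higher in BAT and 29.5% higher in inguinal WAT, the latter near the share here. Those higher in BAT were led by Hoxa4, which ranged over 9.67 to 18.6 CPM (median 16.0) in BAT and 2.17 to 3.62 CPM (median 3.09) in inguinal WAT (log2 fold change 2.37). Hoxc4, Hoxa5 and Hoxc5 followed with log2 fold changes of 0.98, 0.83 and 0.57. With total counts alone only Hoxa4 of these remained called. The Hoxc5 call was also lost when BAT mouse 3 or 5, or inguinal mouse 2, 6 or 7, was left out. All 9 genes tested of groups 8 to 10 were called higher in inguinal WAT, at a median of -3.67. In HoxC, Hoxc8 averaged 5.8 ± 3.69 CPM in BAT against 74.2 ± 19.0 in inguinal WAT (log2 fold change -3.67). In HoxA, Hoxa9 averaged 0.67 ± 0.346 CPM in BAT against 13.1 ± 3.94 in inguinal WAT (log2 fold change -4.29). In HoxB and HoxD the log2 fold changes of Hoxb9 and Hoxd9 were -1.27 and -1.37. In groups 1 to 3, 1 of 6 genes tested was called, higher in inguinal WAT, and in groups 6 and 7 it was 3 of 5. None of the 9 genes of groups 11 to 13 had enough counts to be tested.

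**Figure D5:**
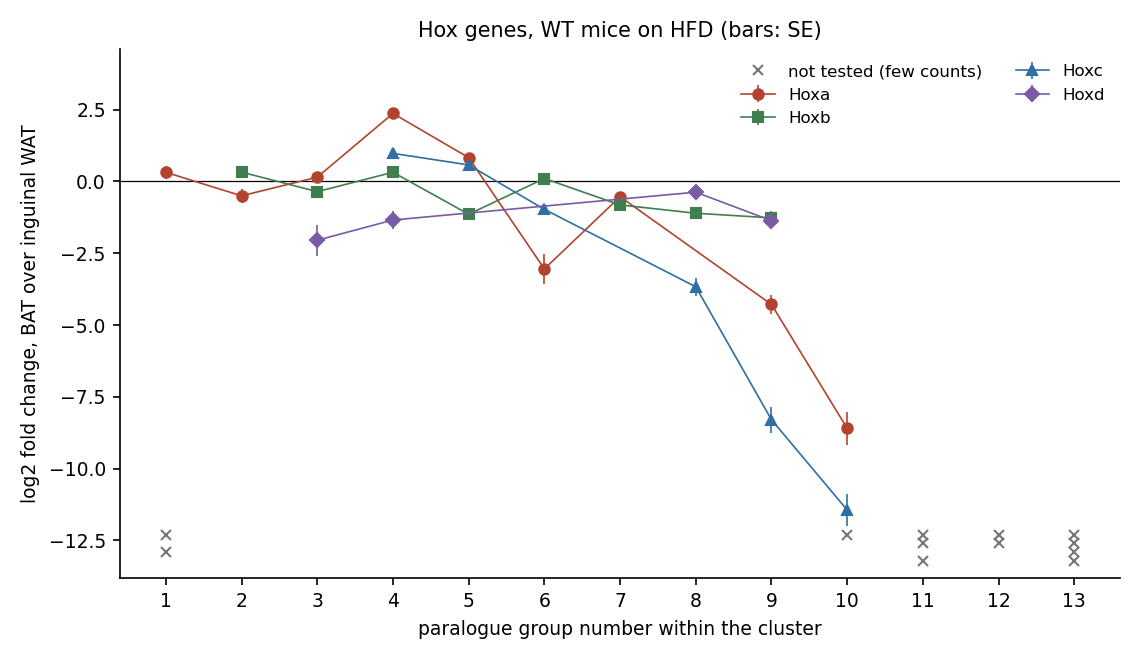
Log2 fold change of BAT over inguinal WAT (± SE) for the 27 Hox genes tested, by their paralogue group number within the cluster, with crosses near the bottom for the 12 genes not tested. Hoxa4 lies highest at 2.37, groups 8 to 10 lie below 0, and Hoxa10 and Hoxc10 lie lowest, where the fitted value depends on BAT counts at or near 0.

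Other position genes divided as well, with 6 of 30 tested called higher in BAT and 10 higher in inguinal WAT, beside 27.6% and 29.5% of all genes tested. The split was 3 and 18 with total counts alone. Zic4, the neighbour of Zic1, had 1.98 to 4.46 CPM (median 3.2) in BAT and was at least 27.1-fold higher there (60 shared exonic bases with Zic1). Tbx3 (median 66.5, range 46.0 to 125 CPM in BAT, and median 19.2, range 16.8 to 25.9 CPM in inguinal WAT, log2 fold change 1.95) was higher in BAT. Shox2 was higher in inguinal WAT (median 1.59, range 0.293 to 2.59 CPM in BAT, and median 13.7, range 8.95 to 30.8 CPM in inguinal WAT, log2 fold change -3.49), as was Prrx1 (log2 fold change -1.03), both limb mesenchyme genes.

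The largest differences outside these lists were also mostly near on and off. Among genes with at least 10 CPM in BAT, the Wnt pathway receptor Lgr6 ranged over 120.2 to 171 CPM (median 129) in BAT and 0 to 0.263 CPM (median 0.0543) in inguinal WAT (log2 fold change 10.61, SE 0.30, adjusted p = 3.4e-14). Rspo4, which encodes a secreted ligand of Lgr receptors, ranged over 1.59 to 23.4 CPM (median 9.32) in BAT, at least 86.2-fold higher than in inguinal WAT. Rspo4 varied more than 10-fold among BAT samples and was lowest in mice 1 and 2. Kng2, a kininogen gene, ranged over 145 to 238 CPM (median 200.2) in BAT and 0.194 to 1.3 CPM (median 0.42) in inguinal WAT (log2 fold change 8.58). The prostaglandin D synthase gene Ptgds ranged over 5.31 to 67.0 CPM (median 41.7) in BAT and 0 to 0.348 CPM (median 0.0181) in inguinal WAT (log2 fold change 8.84). In the other direction the complement gene C6 ranged over 0 to 0.577 CPM (median 0.0661) in BAT and 16.3 to 41.5 CPM (median 25.6) in inguinal WAT. Gpr50, a melatonin receptor relative, had no count in BAT and 7.36 to 20.4 CPM (median 10.4) in inguinal WAT, at least 26.6-fold lower in BAT. Klf14, an imprinted regulator of fat cells, ranged over 0 to 0.661 CPM (median 0.309) in BAT and 18.6 to 35.8 CPM (median 23.1) in inguinal WAT (log2 fold change -6.24). The gastric lipase gene Lipf ranged over 0 to 1.02 CPM (median 0.297) in BAT and 24.4 to 49.3 CPM (median 34.9) in inguinal WAT (log2 fold change -6.39). Mfn2, the gene edited elsewhere in the series, encodes an outer membrane protein for mitochondrial fusion and was higher in BAT. It ranged over 328 to 363 CPM (median 333) in BAT and 123 to 185 CPM (median 146) in inguinal WAT (log2 fold change 1.16, SE 0.09, adjusted p = 2.1e-09), and its relative Mfn1 had a log2 fold change of 1.40.

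Markers of several other cell types also differed between the depots, and their part in the differences above was not tested. Of all genes tested, 27.6% were called higher in BAT and 29.5% higher in inguinal WAT. Among the counts below that were higher in inguinal WAT, those of smooth muscle, nerve and adipocyte markers lie near that share. The lymphocyte count does too, but all 18 lymphocyte markers tested had negative log2 fold changes, at a median of -3.20. Macrophage markers were called higher in inguinal WAT in 16 of 17 genes and never in BAT (median log2 fold change -1.99). Itgax, a marker of macrophages that gather in obese fat, ranged over 2.44 to 11.2 CPM (median 5.03) in BAT and 19.7 to 72.5 CPM (median 50.7) in inguinal WAT (log2 fold change -3.04, SE 0.39, adjusted p = 7.2e-06). Gpnmb averaged 22.1 ± 18.7 CPM in BAT against 151 ± 92.9 in inguinal WAT (log2 fold change -2.78). The summed level of the macrophage list was 247 to 752 CPM in BAT and 975 to 1849 CPM in inguinal WAT. Markers of progenitors and fibroblasts were called higher in inguinal WAT in 13 of 18 genes and higher in BAT in 1. The latter was the progenitor marker gene Ly6a, which averaged 232 CPM in BAT against 134 in inguinal WAT (log2 fold change 0.79). Collagens were called higher in inguinal WAT in 21 of 34 genes, against 4 higher in BAT. The fibrillar collagen gene Col1a1 ranged over 53.9 to 189.6 CPM (median 82.2) in BAT and 338 to 700.4 CPM (median 499) in inguinal WAT (log2 fold change -2.44, SE 0.27, adjusted p = 1.1e-06). The basement membrane gene Col15a1 ranged over 41.0 to 141 CPM (median 46.9) in BAT and 399 to 780.0 CPM (median 579.8) in inguinal WAT (log2 fold change -3.19). Col27a1 was 3.52 higher in BAT on the log2 scale. All 5 mast cell markers tested were called higher in inguinal WAT (median log2 fold change -1.71). Against inguinal WAT of chow-fed mice 2 of 5 were called (median -0.89), and in KI mice 1 of 5 (median -0.30). For lymphocytes 6 of 18 were called higher in inguinal WAT. That count was 2 of 18 without BAT mice 1 and 2, 10 of 18 with total counts alone and 13 of 21 with DESeq2. Endothelial markers went both ways (5 higher in BAT, 2 higher in inguinal WAT, of 11), and with total counts alone the split turned to 2 and 4. Kdr ranged over 320.4 to 472 CPM (median 354) in BAT and 128 to 195 CPM (median 164) in inguinal WAT (log2 fold change 1.18). Pecam1 ranged over 323 to 418 CPM (median 382) in BAT and 454 to 598 CPM (median 480.2) in inguinal WAT (log2 fold change -0.41). Of 10 genes shared by all adipocytes 2 were called higher in BAT and 4 higher in inguinal WAT, and Fabp4 ranged over 13313 to 16001 CPM (median 14564) in BAT and 13097 to 23809 CPM (median 17549) in inguinal WAT (adjusted p = 0.065). Smooth muscle and pericyte markers split into 2 higher in BAT and 3 higher in inguinal WAT of 8, and 3 of 8 nerve and Schwann cell markers were called, all higher in inguinal WAT. None of 14 skeletal muscle genes was called, and 3 were called higher in inguinal WAT once BAT mice 1 and 2 were left out. Epithelial and mammary markers were close to absent, with 2 of 12 abundant enough to be tested.

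Smaller lists gave mixed pictures. Of 12 genes of creatine and calcium cycling, 4 were called higher in BAT, among them the creatine kinase gene Ckb (median 89.0, range 61.6 to 131 CPM in BAT, and median 32.4, range 22.1 to 57.8 CPM in inguinal WAT, log2 fold change 1.33), and 3 higher in inguinal WAT, the creatine synthesis genes Gatm (log2 fold change -1.33) and Gamt (log2 fold change -1.31) and the calcium pump gene Atp2a3 (log2 fold change -1.99). Both shares are near those of all genes tested (27.6% and 29.5%). Of 18 clock genes 10 were called higher in BAT and 1 higher in inguinal WAT, led by Nfil3 (median 33.7, range 20.1 to 44.7 CPM in BAT, and median 3.59, range 2.63 to 5.11 CPM in inguinal WAT, log2 fold change 3.19). The clock split became 6 and 5 with total counts alone. Immediate early genes, which respond to handling of tissue, were called higher in BAT in 6 of 15 and higher in inguinal WAT in 2. That split became 4 and 2 without BAT mice 1 and 2, and 3 and 5 with total counts alone.

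The KI mice, which the WT comparison did not use but which share its 2 count tables, gave large and consistent differences in 1379 of 16069 genes higher in BAT (8.58%) and 1615 higher in inguinal WAT (10.1%). Of the 1224 WT genes higher in BAT, 1209 were tested in KI mice, 1206 had the same sign and 1018 (84.2%) again met the rule. Of the 1475 higher in inguinal WAT, 1370 were tested, 1357 had the same sign and 1001 (73.1%) met the rule. Log2 fold changes in KI mice were 13.63 for Ucp1, 7.85 for Cidea and -5.55 for Lep, and the medians were 6.12 for thermogenic effectors, -4.05 for white fat genes, 3.15 for the nuclear respiratory chain and 2.70 for mitochondrially encoded mRNAs. Whether these values differ from those of WT mice was not tested here.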

How the data were processed

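Whole-tissue polyadenylated RNA was sequenced with paired reads. Per the methods and the labels, the authors used cutadapt for trimming, STAR for alignment to GRCm38 and featureCounts for the deposited counts per gene. Versions and strand setting are not given in the sources used here. The deposited values are raw counts in 3 tables: BAT, inguinal WAT on HFD and inguinal WAT on chow. How the 2 libraries of an inguinal HFD mouse were combined is not stated, and each column was used as 1 mouse. Columns of other groups served only where named. Symbols listed repeatedly with identical counts were kept once.

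BAT and inguinal WAT of WT mice were fitted with edgeR 4.0.16 (R 4.3.3) using its low-count filter, TMM scaling and the quasi-likelihood test with depot as the only term, with Benjamini-Hochberg adjustment over 16271 genes. P-values measure the spread between these samples. In data simulated from these samples over 14696 genes, 200 genes were changed by a log2 fold change of 1.5. Of these 83.5% were recovered, and 1.18% of the calls were false. Both depots were drawn from the inguinal WAT means, and all other genes were left equal. The real depots differ in composition and in many more genes, so these shares do not describe the calls between them. Fold bounds set a depot at or under 3 counts per library to 3 counts. Ratios of paralogues were compared with an exact permutation test on log2(count + 1) in Python 3.11.15. Promoter windows are from RefSeq (GRCm38.p6), which held 864 of 1224 and 1045 of 1475 large and consistent genes. Exonic overlaps came from the reference annotation. Named genes were the depot markers, the 12 largest differences each way among large and consistent genes with a mean of at least 10 CPM, up to 3 called members each way per list, abundant and defining members, the paralogue pairs, Mfn1 and Mfn2. A pair of related genes is not reported here. Further list members and overlapping neighbours were named after their values were seen. Alternatives covered scaling, DESeq2 1.42.0, filters, depth, thresholds, a replicate block, chow-fed mice and mice left out. Leaving out BAT mice 1 and 2 or inguinal mice 2 and 6 was chosen after seeing the data. The comparison and all lists were chosen with earlier results of these data known.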

Additional observations from a re-analysis of the deposited data

Results flagged for a closer look

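Single mice that stood apart from the rest of their group were sought among the values given above, by the gap to the nearest mouse as a share of the group's range (Dixon's 95% limit). Of 310 groups of values, 22 (7.1%) held such a mouse. The limit is set for about 1 in 20 independent, normally distributed groups. These groups share the same mice, and some hold a count in 1 mouse only. The rate of 1 in 20 is therefore no measure of chance here. Each was found among 6 BAT or 8 inguinal WAT mice.

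In BAT, mouse 2 was low in Acadvl (3424 CPM, the others 4530 to 5089) and Atp5b (7489 CPM), and mouse 1 was high in the log2 ratio of Idh3a to Idh1 (3.177); both mice had the raised skeletal muscle markers. BAT mouse 5 was high in Col15a1 (141.4 CPM, the others 41.0 to 66.4), mouse 4 in Kdr (471.8 CPM) and mouse 6 in C6 (0.5771 CPM). Counts in a single BAT mouse set it apart for Hoxc9 (0.2928 CPM in mouse 4) and Hoxa10 (0.1526 CPM in mouse 3), the others being at 0.

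In inguinal WAT, mouse 1 was high in Ucp1 (1.68 CPM, the others 0.181 to 0.714), Fabp3 (15.96 CPM) and Sdhb (96.81 CPM). Mouse 7 was high in Lep (3464 CPM, the others 1569 to 2360) and Kng2 (1.304 CPM) and low in Mest (819.9 CPM, the others 1141 to 1425) and its overlapping neighbour Copg2 (536 CPM). Mouse 3 was high in Gpd2 (27.42 CPM), Hoxc10 (31.56 CPM), Pecam1 (597.7 CPM) and Ppargc1a (3.825 CPM), and mouse 4 in Srebf1 (270.1 CPM). For Zic1 (0.03106 CPM in mouse 7) and Rspo4 (0.04435 CPM in mouse 4) the mouse set apart was the only inguinal one with a count. None of these mice was left out of the values in the report.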

How the results depend on the processing

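The split of calls between the directions moved with scaling. With total counts alone, 2257 genes were called higher in BAT and 8590 higher in inguinal WAT, and 717 and 2673 were large and consistent. Large and consistent genes numbered 749 and 916 against inguinal WAT of chow-fed WT mice, a comparison that shares the BAT samples, and 308 and 442 above an absolute log2 fold change of 3. Above 1 the large and consistent genes higher in BAT numbered 1986, and with at least 10 counts in every mouse 707 higher in inguinal WAT, out of fewer genes tested. The Ppargc1a to Ppargc1b ratio passed once inguinal counts were thinned to BAT depth (-0.41). The Pecam1 log2 fold change was 0.3973 against chow-fed mice, the opposite direction; the cause was not tested.

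Leaving out 1 mouse in turn gave 4070 to 4499 and 4422 to 5007 calls, 1161 to 1279 and 1404 to 1574 large and consistent genes, and log2 fold changes of 13.14 to 13.71 for Ucp1, 8.982 to 9.775 for Zic1, 8.905 to 9.16 for Cidea and -4.78 to -4.215 for Lep. The differences in log2 ratio ran as follows when 1 mouse was left out: Cox7a1 over Cox7a2 5.086 to 5.323, Cox8b over Cox8a 6.907 to 7.102, Cox4i2 over Cox4i1 -3.063 to -2.894, Cox6a2 over Cox6a1 -6.294 to -4.806, Cpt1b over Cpt1a 7.087 to 7.536, Fabp3 over Fabp4 10.32 to 11.36, Cidea over Cidec 10.44 to 10.62, Ucp1 over Ucp2 14.66 to 15.06, Slc25a4 over Slc25a5 0.05997 to 0.1961, Hk2 over Hk1 1.156 to 1.393, Pdk4 over Pdk2 1.95 to 2.137, Elovl3 over Elovl6 2.027 to 2.405, Plin5 over Plin1 4.751 to 5, Adrb3 over Adrb1 -0.4972 to -0.2273, Ppargc1a over Ppargc1b -0.4083 to -0.2585, Acot11 over Acot13 3.491 to 4.055 and Idh3a over Idh1 2.513 to 2.669.

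Nothing in the labels ties same-numbered mice of the depots to the same animals, and the data do not settle it: their deviations correlated at -0.0707 to 0.247, and 1 of 6 correlated best with its own number. With a replicate block on mice 1 to 6, 3778 and 4278 genes were called and 1116 and 1326 were large and consistent, beside 3978 and 4565 and 1140 and 1427 in the same mice with no replicate block. The lower depth of BAT limits what is detectable there among genes near 3 counts.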
